A study of Homo sapiens with 12 samples.

Results

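The genes described are 9 targets of the transcription factor p53, namely MDM2, AEN, TP53I3, TP53INP1, GADD45A, SESN1, SESN2, ZMAT3 and PMAIP1. Every probe set whose gene symbol in the platform annotation is one of these names was taken, which gave 26 of the 54613 probe sets that are not controls, for 9 of 19775 genes. MDM2 has 10 of them, ZMAT3 5, TP53INP1 3, SESN2 and PMAIP1 2 each, and AEN, TP53I3, GADD45A and SESN1 1 each. Levels were measured on 12 arrays of total RNA, 3 in each of 4 groups, from a pair of established lines of classical Hodgkin lymphoma, L428 and L1236. The groups are untreated L428, L428 given 5-Aza-dC, untreated L1236 and L1236 given 5-Aza-dC. Treated cells received 1 µM of the drug for 24 h and were harvested after a further 72 h without it. 5-Aza-dC, also called decitabine, enters DNA in place of deoxycytidine and binds the methyltransferases covalently. Methylation is then lost over cell divisions, and the protein-DNA adducts can be sensed as damage. The labels do not say that replicates were separate cultures, so p-values measure the spread between these samples, which may be technical.

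p53 is held at a low level by the ubiquitin ligase MDM2, which is itself a p53 target and so closes a feedback loop. When DNA damage or other stress releases p53, it binds response elements near its targets and raises genes that stop the cell cycle (GADD45A), promote cell death (PMAIP1, AEN, TP53I3, TP53INP1), restrain growth signalling (SESN1, SESN2) or bind RNA (ZMAT3). Several of these genes also answer to other factors, among them ATF4 for SESN2 and PMAIP1. Altered p53 has been described in cell lines of Hodgkin lymphoma, and the state of p53 in these cells was not measured here. The gene of p53 itself was not analysed here.

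Values are log2 signals, so a difference of 1 is a factor of 2. Group values are means ± SD (n = 3), and differences are given ± SE from limma with Benjamini-Hochberg adjusted p-values over all 54613 probe sets. A probe set is said to have risen or fallen where the adjusted p is under 0.05. Signals near 2 to 3 are the lower end of the scale, and folds from there are uncertain in size. Of the 26 probe sets, 10 stayed below a signal of 4 on all 12 arrays, 8 of MDM2 and 2 of TP53INP1. They are accounted for in the counts and described with their genes.

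The arrays numbered 1 stood apart from the others of their groups. The SD of an array's deviations from its group mean was 0.385 and 0.350 in treated replicate 1 of L428 and L1236 and 0.313 in untreated replicate 1 of L428, while the remaining 9 arrays had 0.161 to 0.244. The array closest to treated L428 replicate 1 was an untreated one of the same line (r = 0.987 across probe sets). The source name of untreated L1236 replicate 1 describes treated L428 cells, while its description reads untreated L1236, which was used. The array closest to it was untreated L1236 replicate 3 (r = 0.994). The 8 Hodgkin markers checked, CD30 (TNFRSF8) among them, were above 4 on arrays of every group. Of 6 B-cell markers measured, 3 were below 4 on all untreated arrays of each line. MS4A1, which encodes the B-cell antigen CD20, was among these and lay at 2.43 to 2.59 on all 12 arrays. The lines differed on others without treatment. POU2AF1 was 13.41 in L1236 and 2.39 in L428, PAX5 11.78 and 5.32, and BLK 2.18 and 5.43. Of 7 stromal, endothelial and epithelial markers, 5 rose in L1236, where 7.41% of all genes rose. The mean level of the list there went from 4.41 to 4.55 up to 6.48 to 6.65. PECAM1 and COL1A2 of this list were not called, with differences of -1.02 and -0.022. The T-cell and NK-cell list had 2 of 7 genes higher (2.60 to 2.70 up to 3.47 to 3.66), and the myeloid list 1 of 5 (3.15 to 3.24 up to 3.28 to 4.17). In untreated L1236, 5, 6 and 3 genes of these lists were below 4 on all arrays. In L428 limma called none of them. The mean of the stromal, endothelial and epithelial list there was 3.89 to 3.97 without treatment and 3.99 to 4.24 with it. Their part in the results on L1236 was not tested.

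The sequences before the starts of these genes are shown where they hold a p53 response element, because the genes carrying one both rose and fell. RefSeq start windows (GRCh38.p14) were found for 7 of the 9 genes, 13 windows in all, each taken as the 250 bases before a transcript start. The p53 response element was searched for by its consensus, a pair of adjoining 10-base sites, with the C and G of both cores kept and at most 3 other letters off the consensus. The consensus is its own reverse complement, so both strands are covered. It was found in 5 of the 13 windows, from 4 genes, and in 0.914% of all 35114 windows. The 2 MDM2 windows that hold it overlap. By the RefSeq gene bounds, the windows with a match lie inside the gene for MDM2, AEN and SESN1, before internal transcript starts, and just before the gene for PMAIP1. Capitals mark the 20 bases of the match, which has 2 letters off the consensus in AEN and MDM2 and 3 in PMAIP1 and SESN1. The windows are AEN at chr15:88621090-88621339 (+ strand), MDM2 at chr12:68808767-68809016 (+ strand) and PMAIP1 at chr18:59899746-59899995 (+ strand). For SESN1 the match alone is shown, at chr6:109009018-109009037 (− strand).
AEN: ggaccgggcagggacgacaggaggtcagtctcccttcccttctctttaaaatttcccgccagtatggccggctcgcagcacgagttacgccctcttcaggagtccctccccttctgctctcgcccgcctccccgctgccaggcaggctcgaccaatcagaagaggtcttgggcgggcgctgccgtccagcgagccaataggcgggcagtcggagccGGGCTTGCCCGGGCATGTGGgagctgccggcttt
MDM2: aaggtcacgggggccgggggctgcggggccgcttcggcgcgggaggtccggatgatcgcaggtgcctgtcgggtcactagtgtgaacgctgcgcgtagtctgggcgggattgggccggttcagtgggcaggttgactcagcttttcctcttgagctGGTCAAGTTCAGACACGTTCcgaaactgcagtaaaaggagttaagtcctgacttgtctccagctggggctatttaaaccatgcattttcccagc
PMAIP1: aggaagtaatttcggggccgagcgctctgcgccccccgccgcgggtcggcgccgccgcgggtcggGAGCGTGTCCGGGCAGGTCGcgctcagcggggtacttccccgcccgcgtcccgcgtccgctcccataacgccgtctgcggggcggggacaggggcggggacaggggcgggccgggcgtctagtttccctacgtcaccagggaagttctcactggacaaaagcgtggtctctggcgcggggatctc
SESN1: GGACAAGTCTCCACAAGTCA

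In the results that follow, AEN rose in both lines, PMAIP1 and MDM2 were called in L1236, the first higher and the second lower, and SESN1 fell in L1236. A match to the letters is not evidence that p53 binds there in these cells. The motif TGATGNAA, part of the element bound by ATF4, was in none of the 13 windows on either strand and in 3.14% of all windows. It says only that these letters are not in these windows.

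In L1236, 4 of the 9 genes rose after the drug (AEN, TP53I3, TP53INP1 and PMAIP1) and 2 fell (MDM2 and SESN1). In L428, AEN alone was called, and it rose. The labels do not say that arrays are paired. With the replicate numbers taken as a block, MDM2 was also lower in L428 by 2 probe sets. In that setting 3 of 26 (11.5%) were called there, against 2.2% of all probe sets. In terms of probe sets, 7 of 26 (26.9%) were called in L1236, 4 higher and 3 lower, where limma called 9.02% of all probe sets, 4.58% higher and 4.44% lower. In L428 it was 1 of 26 (3.85%), and it was higher, against 3.02% of all probe sets, 1.82% higher and 1.2% lower. The median difference over the 26 was 0.020 in L1236 and -0.029 in L428, beside -0.032 and -0.022 over all probe sets. With each array centred on its median, 12 of the 26 (46.2%) were called in L1236, 6 in each direction, against 24% of all probe sets, and the share of higher calls among all called probe sets there was 24.6% against 50.8% as reported. Without the label-conflicted array, untreated L1236 replicate 1, 5 of the 26 (19.2%) were called in L1236, 4 higher and 1 lower, against 7.01% of all probe sets.

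**Figure D1:**
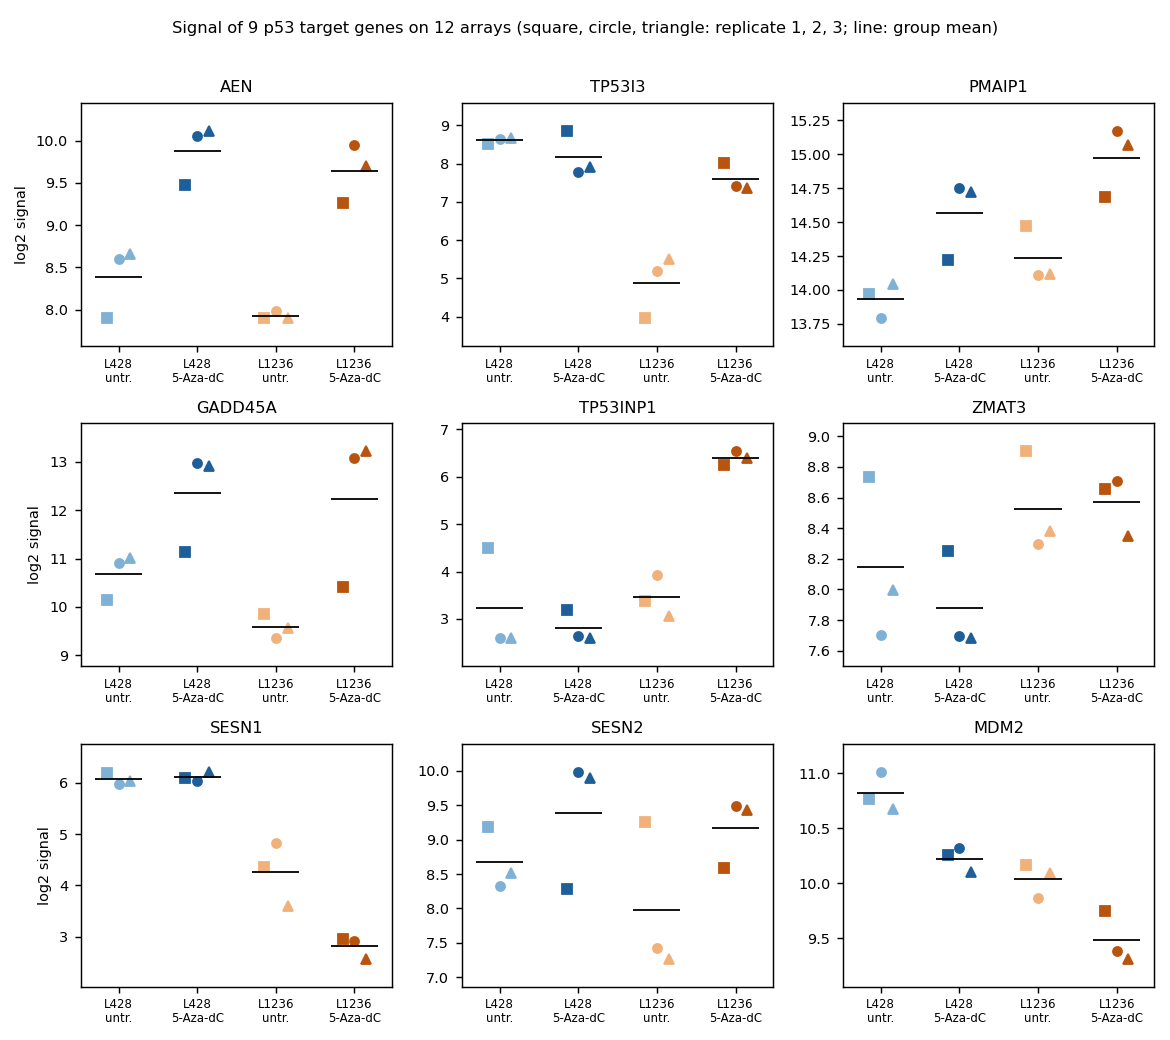
Log2 signal of the 9 genes on each of the 12 arrays, by the probe set with the highest mean for each gene. Groups lie along the horizontal axis, symbols give the replicate number and lines the group mean, and the vertical scales differ between genes. AEN is higher in all treated arrays of both lines, TP53I3 and TP53INP1 differ between untreated and treated arrays in L1236, and the treated arrays numbered 1 (squares) lie below the other treated arrays for GADD45A, SESN2 and PMAIP1.

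Of the genes with a role in cell death, AEN rose in both lines, TP53I3 and TP53INP1 rose in L1236 with responses that differed between the lines, and PMAIP1 rose in L1236. AEN encodes a nuclear exonuclease that takes part in apoptosis after DNA damage. In L428 its signal was 7.90, 8.60 and 8.66 without treatment and 9.48, 10.05 and 10.11 with it. In L1236 it was 7.90, 7.98 and 7.90 without treatment and 9.26, 9.95 and 9.70 with it. All treated arrays lay above all untreated arrays of their line. AEN rose by 1.49 ± 0.25 in L428 (adjusted p = 0.0178), a 2.82-fold change, and by 1.71 ± 0.25 in L1236 (0.00424), a 3.26-fold change. The difference between the responses was 0.21, with a 95% interval of -0.60 to 1.03 (adjusted p = 0.941). From low to high the groups ran untreated L1236 (7.93 ± 0.04), untreated L428 (8.39 ± 0.42), treated L1236 (9.63 ± 0.35) and treated L428 (9.88 ± 0.35), and the neighbours overlapped within the untreated pair and within the treated pair. The call in L428 was lost without treated replicate 2 (0.0770) or 3 (0.0799) and with the arrays of L428 alone in the fit (0.160). The call in L1236 held under all 15 alternatives.

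TP53I3 encodes a quinone oxidoreductase-like enzyme that is linked to the production of reactive oxygen species. Without treatment its signal was 8.50, 8.64 and 8.68 in L428 and 3.97, 5.20 and 5.51 in L1236. After the drug it was 8.85, 7.79 and 7.90 in L428 and 8.01, 7.42 and 7.37 in L1236. Untreated L1236 thus stood alone at a low level, and the treated groups of both lines overlapped. In untreated cells TP53I3 was lower in L1236 by a log2 difference of -3.72 ± 0.42 (adjusted p = 2.02e-04). In L1236 it rose by 2.71 ± 0.42 (0.00490), a 6.54-fold change, under all 15 alternatives, and without the 4 arrays numbered 1 the rise was 2.04 (3.37e-04). In L428 the difference was -0.43 ± 0.42 (0.585), and -0.82 (0.00785) without the arrays numbered 1. The responses differed by 3.14 ± 0.59 (0.0297). The adjusted p of that difference was 0.146 with a block for the replicate number, and it was 0.0567 to 0.0836 without untreated L428 replicate 2 or 3, treated L428 replicate 2 or 3, untreated L1236 replicate 2, or treated L1236 replicate 2 or 3.

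TP53INP1 encodes a stress-induced nuclear protein that promotes the activation of p53 and takes part in autophagy. By probe set 225912_at the untreated arrays read 4.50, 2.61 and 2.59 for L428 and 3.39, 3.92 and 3.07 for L1236. The treated arrays read 3.18, 2.65 and 2.60 for L428 and 6.26, 6.53 and 6.39 for L1236. Treated L1236 lay above all other arrays, while the other 3 groups overlapped at the lower end of the scale, apart from the 4.50 of untreated L428 replicate 1. The gene rose by 2.93 ± 0.48 in L1236 (adjusted p = 0.00660), a 7.64-fold change, under all 15 alternatives. In L428 the difference was -0.42 ± 0.48 (0.627), and 0.023 without the 4 arrays numbered 1. The responses differed by 3.36 ± 0.68 (0.0393). That call was lost with the block (0.0549), and without treated L428 replicate 2 or 3, any 1 of the untreated L1236 arrays, or treated L1236 replicate 2 or 3 (0.0621 to 0.105). The other probe sets of the gene, 235602_at and 244721_at, read 2.05 to 2.19 on all arrays and were not called.

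PMAIP1 encodes NOXA, a BH3-only protein that neutralises the survival protein MCL1. Its probe sets read 13.51 to 15.17 over all arrays. By probe set 204285_s_at L428 read 13.97, 13.79 and 14.04 before and 14.22, 14.75 and 14.72 after the drug. L1236 read 14.47, 14.11 and 14.12 before and 14.69, 15.17 and 15.07 after it. Treated and untreated arrays did not overlap in either line, although the treated arrays numbered 1 came close to the untreated ones. The probe set rose by 0.74 ± 0.18 in L1236 (adjusted p = 0.0369), and its difference in L428 was 0.63 ± 0.18 (0.116). The second probe set, 204286_s_at, had differences of 0.92 ± 0.25 in L1236 (0.0579) and 0.50 ± 0.25 in L428 (0.395), and the 2 correlated at r = 0.946 over the 12 arrays. Leaving out untreated L1236 replicate 2 or 3, or treated L1236 replicate 2 or 3, ended the call of 204285_s_at in L1236 (0.123 to 0.142), and so did a fit of the L1236 arrays alone (0.0895). Without the 4 arrays numbered 1, both probe sets were higher in both lines, by 0.82 and 0.78 in L428 (0.00395 and 0.0124) and by 1.00 and 1.28 in L1236 (0.00148 and 0.00191).

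**Figure D2:**
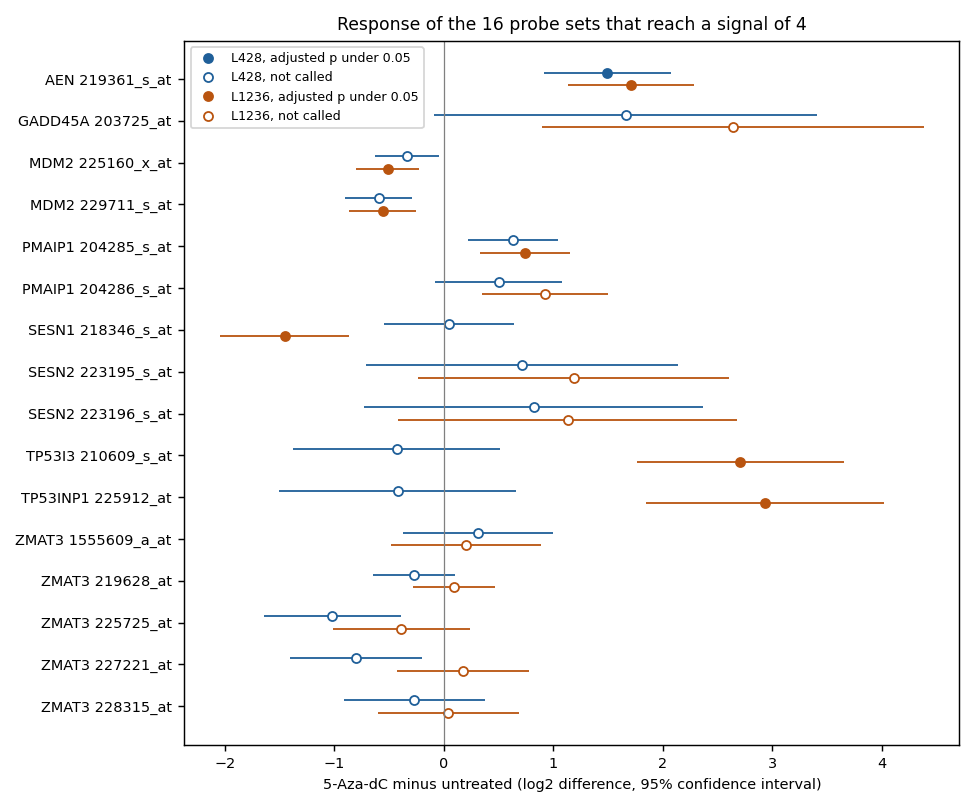
Log2 difference between treated and untreated arrays in L428 and L1236 for the 16 probe sets that reach a signal of 4 on some array, with 95% confidence intervals from limma. Filled points have an adjusted p under 0.05. The intervals of the lines are apart for TP53I3, TP53INP1 and SESN1, and overlap widely for AEN, MDM2 and PMAIP1.

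The values of GADD45A and SESN2 depended on the arrays numbered 1, and SESN1 fell in L1236. GADD45A encodes a small acidic protein that inhibits cyclin-dependent kinase 1 and activates stress kinases. Untreated arrays read 10.15, 10.91 and 11.00 for L428, and the treated ones 11.13, 12.98 and 12.92. For L1236 the untreated arrays read 9.86, 9.35 and 9.57 and the treated ones 10.40, 13.08 and 13.22. In both lines every treated array lay above every untreated one, with treated replicate 1 far below the other treated arrays. The differences were 1.66 ± 0.77 in L428 (adjusted p = 0.339) and 2.64 ± 0.77 in L1236 (0.0702), so neither was called. Without the 4 arrays numbered 1 they were 2.0 (3.32e-04) and 3.69 (3.50e-05), and the responses then differed by 1.70 (0.00204), against 0.98 (0.870) with all arrays. Without treated L1236 replicate 1 alone the difference in L1236 was 3.56 (0.00399).

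SESN1 and SESN2 encode sestrins, stress proteins that restrain the growth kinase complex mTORC1. For SESN1, L428 gave 6.19, 5.99 and 6.03 untreated and 6.09, 6.04 and 6.22 treated. L1236 gave 4.37, 4.83 and 3.60 untreated and 2.95, 2.91 and 2.57 treated. The L428 groups overlapped throughout, and in L1236 all treated arrays lay below the untreated ones, at the lower end of the scale. SESN1 fell by 1.46 on the log2 scale in L1236 (SE 0.26, adjusted p = 0.0104), and in L428 its difference was 0.05, with a 95% interval of -0.55 to 0.64. In untreated cells it was lower in L1236, by -1.80 ± 0.26 (9.78e-04). The responses differed by -1.50 ± 0.37 (0.0810), which was not called. The fall in L1236 was not called without the 4 arrays numbered 1 (-1.47, 0.0635) or with the L1236 arrays alone in the fit (0.0914).

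SESN2 was not called in either line. By probe set 223195_s_at L428 gave 9.19, 8.33 and 8.52 untreated and 8.28, 9.99 and 9.90 treated. L1236 gave 9.25, 7.42 and 7.27 untreated and 8.58, 9.48 and 9.43 treated. In both lines the untreated array numbered 1 was the highest of its group and the treated array numbered 1 the lowest, and the groups overlapped for that reason. The difference was 0.71 ± 0.63 in L428 (adjusted p = 0.565) and 1.18 ± 0.63 in L1236 (0.262), and the second probe set, 223196_s_at, gave 0.82 ± 0.68 (0.560) and 1.13 ± 0.68 (0.306). Without the 4 arrays numbered 1, the differences of the 2 probe sets were 1.52 and 1.80 in L428 (6.20e-04 and 0.00204) and 2.11 and 2.06 in L1236 (1.61e-04 and 9.16e-04).

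**Figure D3:**
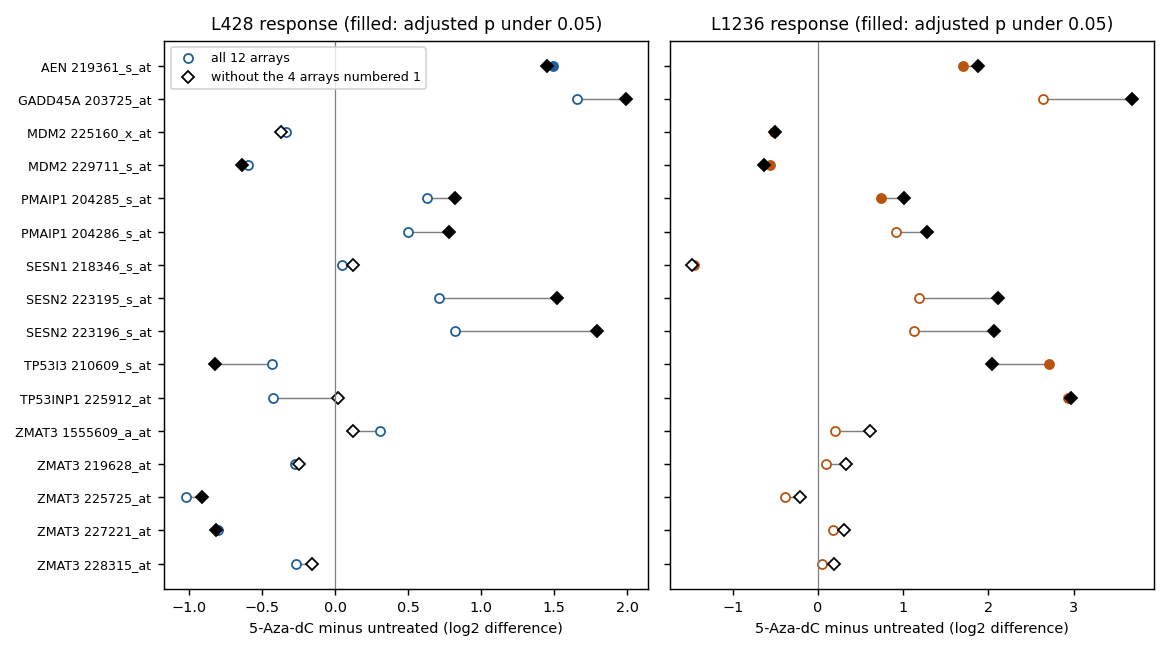
Log2 difference between treated and untreated arrays with all 12 arrays (circles) and without the 4 arrays numbered 1 (diamonds), for L428 and L1236, with filled symbols where the adjusted p is under 0.05. The differences of GADD45A, SESN2 and PMAIP1 are larger without these arrays in both lines, and those of AEN and MDM2 hardly move.

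Over all 26 probe sets, 10 (38.5%) were called in L428 without the 4 arrays numbered 1, 6 higher and 4 lower, and 11 (42.3%) in L1236, 8 higher and 3 lower. In that setting limma called 18.2% and 23.3% of all probe sets, so both the members' counts and the background were larger. The 2 remaining arrays per group leave 1 degree of freedom each.

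MDM2, the feedback inhibitor of p53, fell in L1236 and was not called in L428. By probe set 229711_s_at the L428 arrays read 10.77, 11.01 and 10.68 untreated and 10.25, 10.32 and 10.10 treated. The L1236 arrays read 10.17, 9.87 and 10.10 untreated and 9.75, 9.39 and 9.32 treated. Treated arrays lay below untreated arrays in both lines. MDM2 fell by 0.56 on the log2 scale in L1236 by this probe set (SE 0.14, adjusted p = 0.0357) and by 0.52 by 225160_x_at (SE 0.13, 0.0392). In L428 the differences were -0.60 ± 0.14 (0.0558) and -0.34 ± 0.13 (0.226). With replicate number as a block both L428 differences were called (adjusted p = 0.0440 and 0.0352). The calls in L1236 were lost without untreated replicate 1 or 3 or treated replicate 2 or 3 (0.106 to 0.149), with cyclic loess scaling (0.0528 and 0.0586), with an intensity trend in the prior (0.0510 and 0.0642), and with the L1236 arrays alone in the fit (0.111 and 0.121). Without treatment MDM2 was lower in L1236, by -0.78 ± 0.14 and -0.84 ± 0.13 (0.00286 and 0.00127), under all alternatives run. By both probe sets the groups ran from treated L1236 through untreated L1236 and treated L428 to untreated L428. By 229711_s_at the middle neighbours overlapped (10.04 ± 0.16 and 10.23 ± 0.11).

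The other 8 MDM2 probe sets read between 2.27 and 3.93 on all arrays and none was called. The description of MDM2 therefore rests on 2 of its 10 probe sets, which correlated at r = 0.953 over the 12 arrays.

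ZMAT3 encodes a zinc finger protein that binds RNA and regulates splicing. Its 5 probe sets did not move alike, with pairwise correlations of 0.039 to 0.848 over the 12 arrays. By 228315_at, the probe set with the highest mean, the groups of each line overlapped, with all 12 arrays between 7.68 and 8.90. By 225725_at, L428 gave 7.31, 6.53 and 6.29 untreated and 6.08, 5.55 and 5.45 treated, without overlap. L1236 gave 8.30, 7.73 and 7.85 untreated and 7.56, 7.70 and 7.45 treated, also without overlap. No ZMAT3 probe set was called in either line. The differences in L428 ranged from -1.02 ± 0.28 (225725_at, adjusted p = 0.0986) to 0.31 ± 0.30 (1555609_a_at, 0.587), and in L1236 from -0.39 ± 0.28 (225725_at, 0.363) to 0.20 ± 0.30 (1555609_a_at, 0.658). Between the untreated lines 225725_at was higher in L1236, by 1.25 ± 0.28 (0.0103), and the other 4 probe sets differed by -0.44 to 0.72 and were not called. Without the 4 arrays numbered 1, 225725_at and 227221_at were lower in treated L428, by -0.91 and -0.82 (0.00787 and 0.0334).

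**Figure D4:**
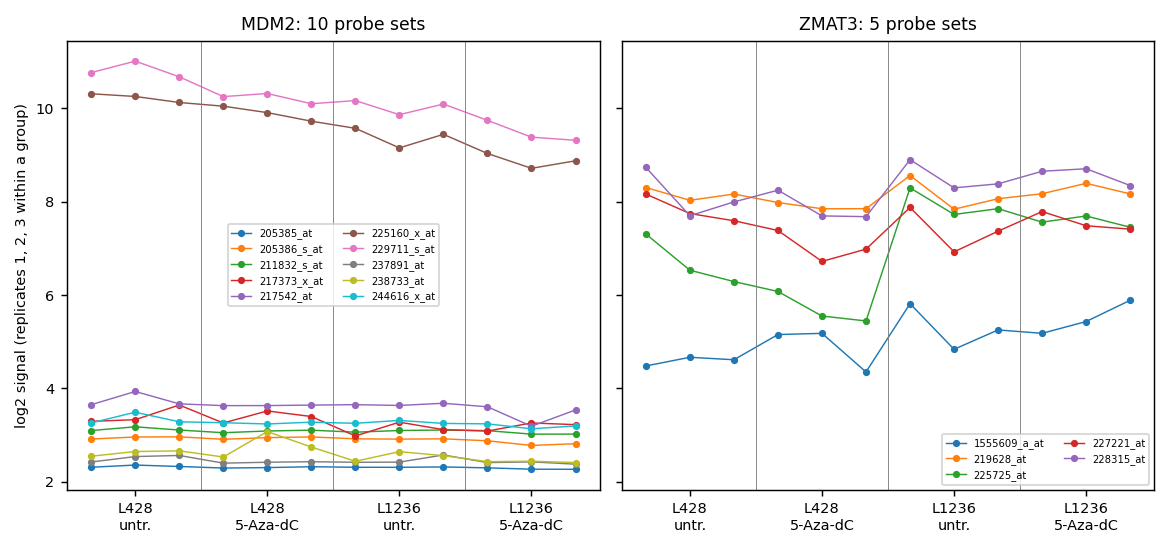
Log2 signal of the 10 MDM2 and 5 ZMAT3 probe sets on the 12 arrays, with replicates 1, 2 and 3 in order within each group. The signal of 8 MDM2 probe sets stays below 4 while the other 2 are highest in untreated L428 and lowest in treated L1236, and the ZMAT3 probe sets follow different courses.

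Between the untreated lines, 5 of the 26 probe sets (19.2%) were called, where 21.1% of all probe sets were, 11.2% higher and 9.89% lower. These are MDM2 by both its brighter probe sets, TP53I3, SESN1 and ZMAT3 by 225725_at, and ZMAT3 alone was higher in L1236. Without the arrays numbered 1 there were 8 (30.8%), against 26.8% of all probe sets, with AEN, GADD45A and SESN2 by 223195_s_at also lower in L1236 (-0.69, -1.50 and -1.08). The members' share was near the background in both settings. For the difference between the responses, 2 of 26 (7.69%) were called, TP53I3 and TP53INP1, both higher in L1236, against 2.57% of all probe sets, 1.42% higher and 1.15% lower. With the block it was 0. Over genes, 3.59% were called for this difference.

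The sequence before the starts was also examined for CG dinucleotides, the sites that DNA methyltransferases act on. Over all 35114 windows of 250 bases the median was 11, with quartiles of 3 and 23. TP53I3 had 6, fewer than AEN with 20, SESN2 with 19 and PMAIP1 with 36. The 4 MDM2 windows had 17 or 33, the 3 SESN1 windows 17, 23 and 32, and the 2 ZMAT3 windows 2 and 31. Methylation was not measured, so these counts describe the sequence and not its state in these cells.

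**Figure D5:**
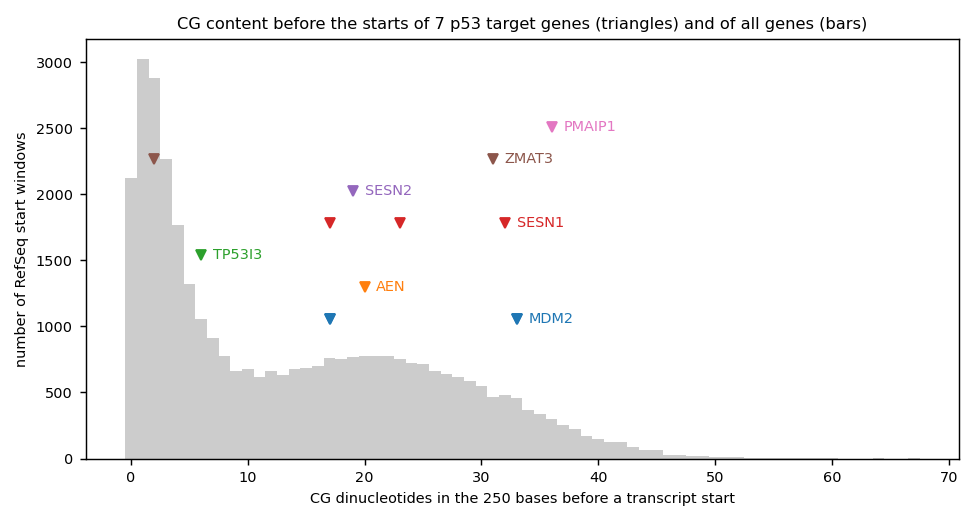
Number of CG dinucleotides in the 250 bases before RefSeq transcript starts, for all 35114 windows (bars) and for the 13 windows of 7 of the p53 target genes (triangles, at heights chosen to keep the genes apart). Except for TP53I3 and one ZMAT3 window, the windows hold 17 or more, above the median of 11.

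The genes whose levels ran most like those of each member over the 12 arrays were listed by Pearson's r, among 19775 genes by the probe set with the highest mean. The arrays share their groups and, within groups, the deviations of the arrays numbered 1, and both enter these values. AEN ran most like PARP12 (r = 0.974), THEMIS2 (0.970) and H3C2 (0.969), and TP53I3 like ACTN1 (0.976), LGALS1 (0.971) and ICAM3 (0.970). TP53INP1 ran most like HOXB-AS1 (0.963), MYEF2 (0.955) and FBLN2 (0.954), and GADD45A like NAMPT (0.985), ARFGAP1 (0.980) and IGDCC4 (0.978). SESN2 ran most like EIF1, a factor of translation start (0.990), ACVR2A (0.942) and TNRC6A (0.937), and SESN1 like CYB561A3 (0.978), B3GAT3 (0.976) and ANKFY1 (0.976). PMAIP1 ran most like IER3 (0.979), IL6 (0.974) and IL15RA (0.974), MDM2 like COX20, NNT-AS1 and SVIP (0.962 to 0.963), and ZMAT3 like PPM1B (0.967), POC1B (0.965) and KCNMA1 (0.941). None of these 27 places was taken by another of the 9 genes. Among the 9, the closest pair was AEN and GADD45A (r = 0.914).

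Of 29 other p53 targets measured, 4 rose and 0 fell in L1236, where 12.4% of all genes were called, 7.41% higher and 4.99% lower. In L428 limma called 0 of the 29, with 5 at an unadjusted p under 0.05, where it called 3.85% of all genes, 2.84% higher and 1.02% lower. Their median differences were -0.013 and -0.018, beside -0.029 and -0.020 over all genes. CDKN1A, which encodes the cell cycle inhibitor p21, read 6.38, 7.02 and 7.03 before and 8.07, 9.95 and 9.78 after the drug in L428. In L1236 it read 7.37, 6.95 and 6.51 before and 9.18, 10.61 and 10.82 after it. All treated arrays lay above the untreated ones in both lines. CDKN1A rose by 3.26 ± 0.58 in L1236 (adjusted p = 0.00968), and its difference in L428 was 2.46 ± 0.58 (0.0624). The death receptor gene FAS rose by 0.83 ± 0.20 (0.0332) in L1236 and the stress cytokine gene GDF15 by 4.08 ± 0.98 (0.0348). TNFRSF10A, which encodes a receptor for the death ligand TRAIL, was the other gene called, at 0.96 ± 0.25 (0.0460). By the mean of all probe sets of a gene, 6 rose and 3 fell in L1236 and 2 rose in L428. The share of all genes called by that measure is not given, so these counts have no background beside them. Without the 4 arrays numbered 1, 11 were higher and 5 lower in L1236 and 6 were higher and 6 lower in L428, where 32.2% and 25.9% of all genes were called.

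Of 18 genes that regulate p53, 2 rose and 2 fell in L1236 and 1 rose in L428. Over all genes, 12.4% were called in L1236 and 3.85% in L428. Without the arrays numbered 1, 4 were higher and 6 lower in L1236, and 4 were higher and 4 lower in L428. In that setting 32.2% and 25.9% of all genes were called. In L1236 the damage-response gene TP53BP1 rose by 1.32 ± 0.19 (adjusted p = 0.00351) and RCHY1, which encodes a ubiquitin ligase, by 0.53 ± 0.13 (0.0378). The kinase gene ATM fell by 0.66 on the log2 scale (SE 0.15, 0.0256), and TP73, a relative of p53, was the other gene lower (-0.94 ± 0.24, 0.0440). In L428, PML, the organiser of nuclear bodies, rose by 1.41 ± 0.26 (0.0249). MDM4, the partner of MDM2, was not called, with differences of -0.49 ± 0.22 in L428 (0.318) and -0.28 ± 0.22 in L1236 (0.402).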

How the data were processed

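The authors deposited 1 log2 value for each probe set on each array, and RMA (robust multichip averaging) is the method that the submitters' processing notes name. Its version and any further scaling or centring are not given in the sources used here. Array medians were 3.01 to 3.09. The identifiers are those of a 3' array although the series design speaks of a whole-transcript one, and names were taken by identifier. Names came from the platform annotation, with 41091 probe sets of 1 symbol, 1801 of several and 11721 of none. Of the first, 41037 were updated through Entrez identifiers to RefSeq (GRCh38.p14). After removal of 62 controls, limma 3.58.1 (R 4.3.3) fitted 4 group means to all 12 arrays and 54613 probe sets (two-sided tests, threshold 0.05). No dim probe set was removed, and the level of 4 used to describe dim ones was chosen after the data were seen. The description of each sample gave its group. The number of arrays limits the precision. The fit was tested on simulated data.

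The members, gene lists and tests were chosen with earlier results of these data known. Named beside the members were MDM4, CDKN1A, up to 3 called genes per list and line with the smallest adjusted p, and for each member the 3 genes most correlated with it. TNFRSF10A, TP73, GADD45B, GADD45G, TNFRSF8, MS4A1, POU2AF1, PAX5, BLK, PECAM1, COL1A2, CHAC1, TRIB3, PPP1R15A, VLDLR and HSPA5 were added after their values were seen. Genes outside the members stand for their probe set with the highest mean. Deviations of same-numbered arrays from their group means correlated at 0.260, 0.154 and 0.167 in L428 and at 0.069, 0.012 and 0.103 in L1236. The reported fit did not pair the arrays in either line, and the replicate block was applied in both lines. The alternatives were 1 probe set per gene, 2 scalings, a filter, a replicate block, array weights, another prior, fewer groups and left-out arrays. The p-values are limma's, computed from the deposited log2 values.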

Additional observations from a re-analysis of the deposited data

Results flagged for a closer look

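The responses of the lines differed by the test of the difference itself for 2 members. For TP53I3 (210609_s_at) the response in L1236 exceeded that in L428 by 3.14 on the log2 scale (adjusted p = 0.0297), with untreated L1236 at 4.89 ± 0.82 and the other groups at 7.60 to 8.61. For TP53INP1 (225912_at) the excess was 3.36 (adjusted p = 0.0393), with treated L1236 at 6.39 ± 0.14 and the other groups at 2.81 to 3.46. In the first case the line that differed was low before treatment, and in the second it was high after it. Neither call held with replicate number as a block (0.146 and 0.0549).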

How the results depend on the processing

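With all arrays, 1, 7, 2 and 5 of the 26 member probe sets were called for the L428 response, the L1236 response, their difference and the untreated lines, and 1647, 4927, 1403 and 11508 of all probe sets. With single arrays left out the members' counts ranged over 0 to 4, 4 to 10, 0 to 2 and 5 to 6, and the first 3 counts of all probe sets over 717 to 6091, 2502 to 8725 and 733 to 3588. Without the 4 arrays numbered 1 the members' counts were 10, 11, 5 and 8, with 9956, 12713, 7816 and 14662 of all probe sets. The gene lists were also counted without these arrays, a setting chosen after the data were seen. With 1 probe set per gene in the fit, 2, 6, 2 and 3 of the 9 member genes were called, in the same order. The counts of all 19775 genes were 920, 2955, 914 and 5699 (4.65%, 14.9%, 4.62% and 28.8%). With the compared groups alone in the fit, 0 and 3 members were called in L428 and L1236, with 244 and 3084 of all. Median centring gave 2 and 12 in L428 and L1236, with 1607 (2.94%) and 13111 (24%) of all. Leaving out dimmer probe sets kept fewer than the 26 members and gave 3 in L428, with 2539 (9.3%) of the 27307 probe sets kept. In that setting 6433 (23.6%) of the probe sets kept were called in L1236, against 9.02% with none left out. The background share in L1236 thus depends on the dim probe sets. Array weights, whose estimation stopped before convergence, gave 2, 17, 1 and 3. The counts of all probe sets were then 1852, 29528, 2876 and 9590 (3.39%, 54.1%, 5.27% and 17.6%). The replicate block gave 3 in L428 and 0 for the difference, with 1204 and 668 of all. In L1236 the block ended the call of PMAIP1 by 204285_s_at (adjusted p = 0.128) and no other member's. The block was not run for the untreated lines, since it lies within a line. Array weights also ended the calls of TP53I3 for the difference (0.0624) and of SESN1 and ZMAT3 225725_at between the untreated lines (0.0709 and 0.0993), the last also lost with the compared groups alone (0.0592).

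Called members kept their direction in every alternative run. Uncalled differences turned sign with array weights for SESN1 in L428 (-0.034), ZMAT3 228315_at in L1236 (-0.013), the difference between responses of MDM2 229711_s_at (-0.090), AEN (-0.075) and ZMAT3 1555609_a_at (0.087), and TP53INP1 between the untreated lines (-0.35). Without the arrays numbered 1 they turned for TP53INP1 in L428 (0.023) and the difference of ZMAT3 1555609_a_at (0.49), and with median centring for ZMAT3 219628_at between the untreated lines (0.012). With single arrays left out, values on both sides of 0 were found in L428 for TP53INP1 (-0.74 to 0.21), SESN1 (-0.0045 to 0.11) and ZMAT3 228315_at (-0.49 to 0.027). In L1236 they were found for ZMAT3 1555609_a_at (-0.033 to 0.46), 219628_at (-0.068 to 0.29), 227221_at (-0.061 to 0.42) and 228315_at (-0.073 to 0.23). For the difference they were found for MDM2 229711_s_at (-0.097 to 0.12), SESN2 223195_s_at (-0.083 to 1.11) and 223196_s_at (-0.23 to 0.99), ZMAT3 1555609_a_at (-0.38 to 0.15) and PMAIP1 204285_s_at (-0.063 to 0.25). Between the untreated lines they were found for TP53INP1 (-0.094 to 0.86), SESN2 223196_s_at (-0.90 to 0.22) and ZMAT3 219628_at (-0.21 to 0.15). The cause was not tested in any of these cases. Signals near the lower end of the scale limit what SESN1 and TP53INP1 can show.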

Other observations

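Genes related to the members by sequence, or by name only (TP53I11 and TP53I13), were also read as 1 list. Of 9 measured, 2 rose in L1236, where 7.41% of all genes rose, and 1 in L428, where 2.84% did. With the 4 arrays numbered 1 left out, 4 were higher in L1236, and 2 were higher and 2 lower in L428. Of all genes, 32.2% were then called in L1236, 15.6% higher, and 25.9% in L428, 13% higher. SESN3, the remaining sestrin gene, was 8.54 ± 0.59 in untreated and 7.91 ± 0.27 in treated L428, and 5.67 ± 0.33 in untreated and 7.47 ± 0.22 in treated L1236. It rose by 1.80 ± 0.30 in L1236 (adjusted p = 0.00693), was not called in L428 (-0.63 ± 0.30, 0.347), and the responses differed by 2.43 ± 0.42 (0.0218). ISG20, an interferon-induced exonuclease gene related to AEN, rose by 3.35 ± 0.57 in L428 (0.0181) and by 3.59 ± 0.57 in L1236 (0.00596). GADD45B had differences of 2.12 ± 0.54 in L428 (0.0809) and 1.88 ± 0.54 in L1236 (0.0662), and GADD45G read 1.96 to 2.72 on all arrays.

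Of 16 genes of the ATF4 stress response, which shares SESN2 and PMAIP1 with p53, 2 rose in L1236 and limma called 0 in L428, with 5 at an unadjusted p under 0.05. The share higher in L1236 was 12.5%, beside 7.41% of all genes. ATF3, a stress-induced transcription factor gene, rose by 1.71 ± 0.33 in L1236 (adjusted p = 0.0136) and had a difference of 1.02 ± 0.33 in L428 (0.157). PHGDH, which encodes the first enzyme of serine synthesis, rose by 1.60 ± 0.26 in L1236 (0.00681) from the lower end of the scale (2.53 ± 0.06 to 4.13 ± 0.33). The median difference of the list was 0.86 in L1236 and 0.33 in L428, beside -0.029 and -0.020 over all genes. In both lines the untreated array numbered 1 read highest of its group for most of the 16 genes. In L428 the exceptions were TRIB3 (9.72 against 10.17 and 10.14), HSPA5 (13.15 against 14.28 and 14.53), PPP1R15A and VLDLR, where it was lowest. In L1236 they were HSPA5 and VLDLR, and that array read higher for TRIB3 (12.13 against 10.79 and 10.60). CHAC1, a gene of glutathione breakdown, read 5.93 on the untreated array numbered 1 of L428 against 3.26 and 3.24 on the others. In L1236 it read 6.62 against 3.45 and 3.24. These genes were picked after their values were seen. With the 4 arrays numbered 1 left out, the medians were 1.44 and 0.58, beside -0.041 and -0.0255 over all genes. In that setting 15 genes were higher and 1 lower in L1236, where 32.2% of all genes were called, and 8 were higher and 3 lower in L428, where 25.9% were.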
